A study of Homo sapiens with 2 samples.

Results

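The ion channels that couple a stimulus to hormone release were described in the hNCI-H716 line, which came from a human adenocarcinoma of the cecum and is used as a model of the intestinal L-cell. The group holds 10 genes of the 19989 in the expression table, taken by name: 3 subunits of ATP-sensitive potassium (KATP) channels (KCNJ11, ABCC8 and ABCC9), 4 pore subunits of voltage-gated calcium channels (CACNA1A, CACNA1C, CACNA1D and CACNA1H), 2 auxiliary calcium channel subunits (CACNA2D1 and CACNB3) and the sodium channel pore subunit SCN3A. All 10 had a row. Cells on Matrigel were kept for 48 h in DMEM with 5.5 mM glucose (low glucose) or 25 mM glucose (high glucose), both with fetal bovine serum and antibiotics, and polyadenylated RNA was sequenced from 1 library of each. The line is a single tumor line, and with 1 library per concentration there is no replicate: a difference compares 2 libraries, and no p-value was computed.

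In insulin-secreting β-cells and in L-cells, the KATP channel holds the membrane at a negative potential and closes when glucose metabolism raises ATP. Each channel joins pore subunits of the Kir6 family with an equal number of sulfonylurea receptors (SUR), which are ABC proteins and bind the sulfonylurea drugs. Depolarization then opens voltage-gated sodium and calcium channels, and the calcium that enters triggers the exocytosis of hormone granules. Low-voltage-activated (T-type) calcium channels open close to the resting potential and work without the auxiliary subunits, whereas high-voltage-activated channels (L-, P/Q-, N- and R-type) assemble with a cytosolic β subunit and an extracellular α2δ subunit.

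Levels are given as CPM (estimated counts of a gene scaled to a fixed library size) after the trimmed mean of M-values (TMM) scaling, with a 95% Wilson interval from the estimated counts, which covers counting error only. The libraries held 21757800 estimated counts at low glucose and 19456500 at high glucose. For a count of 0, a limit of 3 counts of the total was used, 0.138 and 0.154 CPM. The upper end of the Wilson interval for a 0 is higher, at 0.197 CPM in the high glucose library. The defining markers matched the label in part. GCG, the proglucagon gene, was at 1954 CPM at low glucose and 1808 CPM at high glucose, CHGB and CHGA (granins) at 836 and 800 CPM and at 704 and 653 CPM, and 10 of 12 L-cell and endocrine markers averaged 1 CPM or more, while PYY and NEUROD1 had no row. Of 8 intestinal epithelial markers 6 averaged 1 CPM or more, led by KRT8 (270 and 291 CPM), KRT18 (182 and 212 CPM) and CDX2 (30.5 and 38.2 CPM), and VIL1 was higher at high glucose (11.7 and 17.8 CPM, log2 ratio 0.61). CDH1, the epithelial cadherin, named after its values were seen, rested on 1 count at low glucose and 3 counts at high glucose. Of 10 markers of fibroblasts, leukocytes, endothelium, glia and neurons, 5 had a row, and COL1A2 (3.74 and 4.94 CPM) averaged above 1 CPM, with PECAM1 (0.426 and 0.371 CPM) and GFAP (0.288 and 0.162 CPM) next. These marker lists together summed to 4393 and 4200 CPM (endocrine), 499 and 564 CPM (epithelial) and 4.85 and 5.60 CPM (other cell types) in low and high glucose, and their part in the channel values was not tested. In bulk RNA, fewer cells that express a gene and less RNA per cell cannot be told apart.

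The 10 genes covered a wide range of levels. The T-type pore gene CACNA1H stood highest, at 295 CPM at low glucose and 274 CPM at high glucose, and ranked 599 of the 19989 genes by mean CPM. CACNA1A was the lowest, with 3 counts at low glucose and 0 at high glucose. A mean of at least 1 CPM was reached by 7 of the 10 genes (70.0%), against 65.3% of all genes of the table. The 3 genes below 1 CPM were CACNA1D, ABCC8 and CACNA1A, at mean CPM of 0.749, 0.340 and 0.0812. A panel of 10 channel genes known from skeletal muscle or photoreceptors gave the background: 9 had no row, and RYR1 was at 0.196 CPM at low glucose (4 counts) and 0.0634 CPM at high glucose (1 count). Over both libraries this panel reached at most 4 counts. ABCC8 at high glucose, with 2 counts, and CACNA1A in both libraries were within that range. In the high glucose library alone, ABCC8 lay above the 1 count of RYR1.

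**Figure D1:**
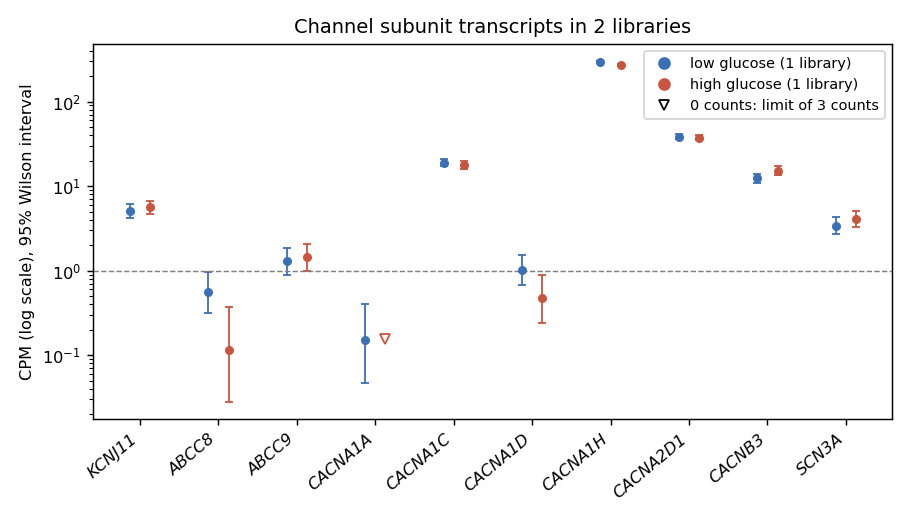
CPM of the 10 channel genes on a log axis in the low glucose library (blue) and the high glucose library (red); bars are 95% Wilson intervals, and the open triangle marks the limit of 3 counts (0.154 CPM) for a count of 0. CACNA1H lies highest, ABCC8, CACNA1A and, at high glucose, CACNA1D lie below the dashed line at 1 CPM, and the intervals of the 2 libraries overlap for all genes but CACNA1H, whose intervals (288 to 302 and 266 to 281 CPM) do not.

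Of the 3 KATP channel genes of the group, KCNJ11 rested on the most counts. It encodes Kir6.2, the pore of the β-cell channel (ENSG00000187486.5; chromosome 11 of GRCh38, 17385859 to 17389331, minus strand), and was at 5.08 CPM at low glucose (4.20 to 6.10, 110 counts) and 5.61 CPM at high glucose (4.64 to 6.75, 109 counts). The counts were almost equal, and the high-over-low log2 ratio was 0.14 (exact 95% interval from counting error, -0.25 to 0.54).

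ABCC8 encodes SUR1, the receptor that pairs with Kir6.2 in β-cells (ENSG00000006071.13; chromosome 11, 17392498 to 17476879, minus strand). It lies 3166 bases from KCNJ11 on the same strand, but its level was far lower: 0.565 CPM at low glucose (0.316 to 0.966, 12 counts) and 0.115 CPM at high glucose (0.0282 to 0.374, 2 counts). The log2 ratio was -2.30 (interval -5.63 to -0.26). The 99% interval, -6.86 to 0.23, included 0, and with a pseudocount of 1 CPM the log2 ratio was -0.49. As a linear ratio of the counts per library, low glucose was 5.38 times high glucose, with a counting interval of 1.198 to 49.5, so the size of this difference is poorly fixed.

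ABCC9 encodes SUR2, the receptor of cardiac and smooth muscle KATP channels (ENSG00000069431.11; chromosome 12, 21797401 to 21942529, minus strand). It was at 1.301 CPM at low glucose (0.892 to 1.86) and 1.45 CPM at high glucose (0.994 to 2.08), with 28 counts in each library. ABCC9 therefore held most of the receptor reads: of the ABCC8 and ABCC9 counts, ABCC8 made up 12 of 40 at low glucose (30%, exact binomial interval 16.6 to 46.5%) and 2 of 30 at high glucose (6.67%, 0.818 to 22.1%). The neighbor of ABCC9, KCNJ8, is not one of the 10 genes. It encodes Kir6.1, the other pore of the family, lies 21819 bases away on the same strand, and was at 39.4 CPM at low glucose and 37.7 CPM at high glucose, from 856 and 734 counts.

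Levels of different genes were compared as mean CPM per kb of the union of the gene's exons. On this scale KCNJ8 was 9.31 times KCNJ11, and 3.89 times with the median transcript as the length. KCNJ11 in turn was 11.5 times the sum of ABCC8 and ABCC9, and ABCC8 made up 18.6% of that sum, with 28.6% at low glucose and 6.81% at high glucose. The pore subunits KCNJ11 and KCNJ8 together stood at 118 times the receptors per kb, against the equal numbers of the assembled channel. Transcripts were measured here and proteins were not. With other definitions of gene length the pore to receptor ratio lay between 54.8 and 95.1, so the excess of pore transcripts held under each length tried.

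CACNA1H encodes the T-type pore Cav3.2 (ENSG00000196557.12; chromosome 16, 1153121 to 1221772, plus strand). It was at 295 CPM at low glucose (288 to 302, 6402 counts) and 274 CPM at high glucose (266 to 281, 5334 counts), which put it at the 97.0 percentile of the table. Its counts give the tightest comparison of the group: the log2 ratio was -0.11 (-0.16 to -0.05), a decrease of 7.11% in CPM, and the intervals of the libraries did not overlap. CACNA1H made up 96.4% of the summed mean CPM per kb of the 6 pore subunit genes with a row, of 10 listed, and stood at 34.4 times CACNA1C, the next of them. Under the 3 other gene lengths the share lay between 92.6% and 95.3%, and the ratio to CACNA1C between 14.6 and 25.4.

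The L-type pores take part in hormone release in endocrine cells. CACNA1C encodes Cav1.2 (ENSG00000151067.21; chromosome 12, 1970786 to 2697950, plus strand) and was at 19.0 CPM at low glucose (17.3 to 20.9, 413 counts) and 17.6 CPM at high glucose (15.8 to 19.6, 343 counts). CACNA1D encodes Cav1.3, an L-type channel that opens at more negative potentials (ENSG00000157388.16; chromosome 3, 53328963 to 53813733, plus strand). It was at 1.02 CPM at low glucose (0.669 to 1.53, 22 counts) and 0.474 CPM at high glucose (0.243 to 0.878, 9 counts). CACNA1C was thus the main L-type pore in both libraries, at 20.0 times CACNA1D per kb for low glucose and 40.1 times for high glucose (5.18 and 10.4 times with the median transcript). The high-over-low log2 ratio was -0.11 for CACNA1C (-0.32 to 0.10) and -1.11 for CACNA1D (-2.44 to 0.04). Both intervals included 0, and that of CACNA1D was the wider by far.

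CACNA1A encodes Cav2.1, the P/Q-type pore of nerve terminals (ENSG00000141837.19; chromosome 19, 13206442 to 13633025, minus strand). It was at 0.150 CPM at low glucose (0.0470 to 0.406, 3 counts), and its count at high glucose was 0. Both values are at or under the limit of 3 counts, so no ratio is given, and a difference between the libraries was not detectable at this depth. Of the 6 pore genes outside the group, the T-type CACNA1G was at 1.99 and 1.86 CPM, 1 had a mean of 0.373 CPM and 4 had no row. The γ subunit genes, 3 of 8 with a row, had means of 0.760 CPM or lower. The 3 pore genes that averaged 1 CPM or more (CACNA1C, CACNA1G and CACNA1H) had log2 ratios between -0.11 and -0.10. The interval excluded 0 for 1 of them, CACNA1H, against 31.7% of all genes at that level, which is near the background.

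The 250 bases before the RefSeq start (GRCh38.p14) are shown for CACNA1C, CACNA1D and ABCC9, to set both L-type genes beside a receptor gene. Each window precedes a RefSeq start that lies inside the span of the gene given above, downstream of its annotated first base, while the CPM cover transcripts from all starts. Capitals mark each CG dinucleotide, the site of DNA methylation.
CACNA1C, chr12:2052737-2052986, plus strand: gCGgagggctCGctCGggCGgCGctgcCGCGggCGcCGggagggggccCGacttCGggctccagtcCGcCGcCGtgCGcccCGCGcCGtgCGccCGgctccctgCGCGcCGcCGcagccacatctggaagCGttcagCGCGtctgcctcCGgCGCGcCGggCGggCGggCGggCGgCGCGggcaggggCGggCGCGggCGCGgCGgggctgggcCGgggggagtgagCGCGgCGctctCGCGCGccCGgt
CACNA1D, chr3:53494361-53494610, plus strand: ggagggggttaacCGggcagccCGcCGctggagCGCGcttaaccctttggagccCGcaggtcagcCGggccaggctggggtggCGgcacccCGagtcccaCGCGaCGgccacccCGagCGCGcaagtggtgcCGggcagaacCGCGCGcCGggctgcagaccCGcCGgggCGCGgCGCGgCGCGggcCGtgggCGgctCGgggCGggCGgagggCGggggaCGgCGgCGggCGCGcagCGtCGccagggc
ABCC9, chr12:21941427-21941676, minus strand: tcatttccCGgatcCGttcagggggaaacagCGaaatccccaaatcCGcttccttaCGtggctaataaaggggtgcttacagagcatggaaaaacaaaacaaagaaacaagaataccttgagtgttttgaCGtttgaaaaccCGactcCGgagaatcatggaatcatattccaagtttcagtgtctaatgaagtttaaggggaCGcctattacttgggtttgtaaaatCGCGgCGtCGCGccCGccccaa
CACNA1C held 51 CG dinucleotides and a GC content of 85.6%, and CACNA1D held 41 and 81.6%. Both windows were among the most CG-rich of the 35114 windows in the RefSeq set, at the 99.9 and 98.4 percentiles. CACNA1C and CACNA1D differed 26.3-fold in mean CPM per kb of exon union and 6.82-fold with the median transcript. A link between CG content and level was not tested. ABCC9 held 15 CG dinucleotides at a GC content of 46.0%, at the 58.1 percentile. The E-box CACGTG reads the same on both strands and is a site of clock and glucose-responsive bHLH factors. It was in 0 of the 8 windows of the 6 members that have one, against 6.35% of all windows. A count of 0 among so few windows is near the background. RefSeq windows were not given for KCNJ11, ABCC8, CACNA1H and SCN3A.

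Among the auxiliary subunits, CACNA2D1 and CACNB3 were both well measured. CACNA2D1 encodes α2δ-1, a subunit bound by gabapentinoid drugs (ENSG00000153956.15, chromosome 7, 81946444 to 82443798, minus strand). It was at 38.5 CPM at low glucose (36.0 to 41.2, 837 counts) and 37.5 CPM at high glucose (34.9 to 40.3, 731 counts). The libraries differed by a log2 ratio of -0.04 (-0.18 to 0.11), the smallest of the group in size. CACNA2D1 was the second α2δ gene of this line under each gene length tried. CACNA2D2, the paralog that encodes α2δ-2 and is not one of the 10 genes, was at 452 CPM at low glucose and 399 CPM at high glucose (log2 ratio -0.18, -0.22 to -0.14), and stood at 15.9 times CACNA2D1 and 2.04 times CACNA1H per kb. CACNA2D1 held 5.90% of the α2δ transcripts per kb, and between 6.07% and 45.6% under other gene lengths, the highest with the median transcript, which is 557 bases long for CACNA2D1.

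CACNB3 encodes β3, a cytosolic subunit that carries high-voltage-activated pores to the membrane (ENSG00000167535.7; chromosome 12, 48813794 to 48828941, plus strand). It was at 12.4 CPM at low glucose (11.0 to 13.95, 269 counts) and 15.3 CPM at high glucose (13.7 to 17.1, 298 counts). CACNB3 was the gene of the group with the highest log2 ratio, 0.30 (0.06 to 0.55), and its counting interval lay above 0, although the Wilson intervals of the libraries overlapped and the 99% interval (-0.01 to 0.62) included 0. It made up 70.4% of the β subunit transcripts per kb. Of its 3 paralogs, CACNB1 was at 5.54 and 4.99 CPM, 1 had a mean of 0.659 CPM and 1 had no row. The β genes summed to 2.70 times the 4 high-voltage-activated pore genes with a row per kb (up to 8.40 times under other lengths), and the α2δ genes to 70.3 times (down to 45.4 times).

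SCN3A encodes Nav1.3, a voltage-gated sodium channel pore of developing neurons and of endocrine cells (ENSG00000153253.16; chromosome 2, 165087522 to 165204067, minus strand). It was at 3.42 CPM at low glucose (2.71 to 4.28, 74 counts) and 4.12 CPM at high glucose (3.30 to 5.11, 80 counts), a log2 ratio of 0.27 (-0.21 to 0.75). The intervals of the libraries overlapped. SCN3A held 32.7% of the sodium pore transcripts per kb and was second to SCN8A, at 9.13 and 9.88 CPM, which held 54.3%, and its share was 12.98% with the median transcript. SCN1A was at 1.62 and 1.65 CPM and SCN2A at 1.35 and 0.833 CPM, the latter with a log2 ratio of -0.69 (-1.68 to 0.23). Of 9 sodium pore genes listed, 5 had a row and 4 a mean of at least 1 CPM. Among the sodium β subunits, SCN3B was at 30.7 and 32.5 CPM.

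Placed on the scale of mean CPM per kb, the order of the 10 genes was CACNA1H (33.0), CACNA2D1 (4.22), CACNB3 (1.94), KCNJ11 (1.67), CACNA1C (0.959), SCN3A (0.383), ABCC9 (0.118), CACNA1D (0.0364), ABCC8 (0.0270) and CACNA1A (0.00188). Of neighbors in this order, CACNB3 and KCNJ11 had overlapping counting intervals in both libraries, as did CACNA1D and ABCC8, and ABCC8 and CACNA1A overlapped at high glucose. The other neighbors were apart in both libraries. With the longest transcript or the longest coding sequence as the length the order was the same, and with the median transcript CACNA2D1 passed CACNA1H and ABCC9 passed SCN3A. The exon union of CACNA1A is 43.2 kb, longer than any single transcript of the gene, which lowers its value on this scale.

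**Figure D2:**
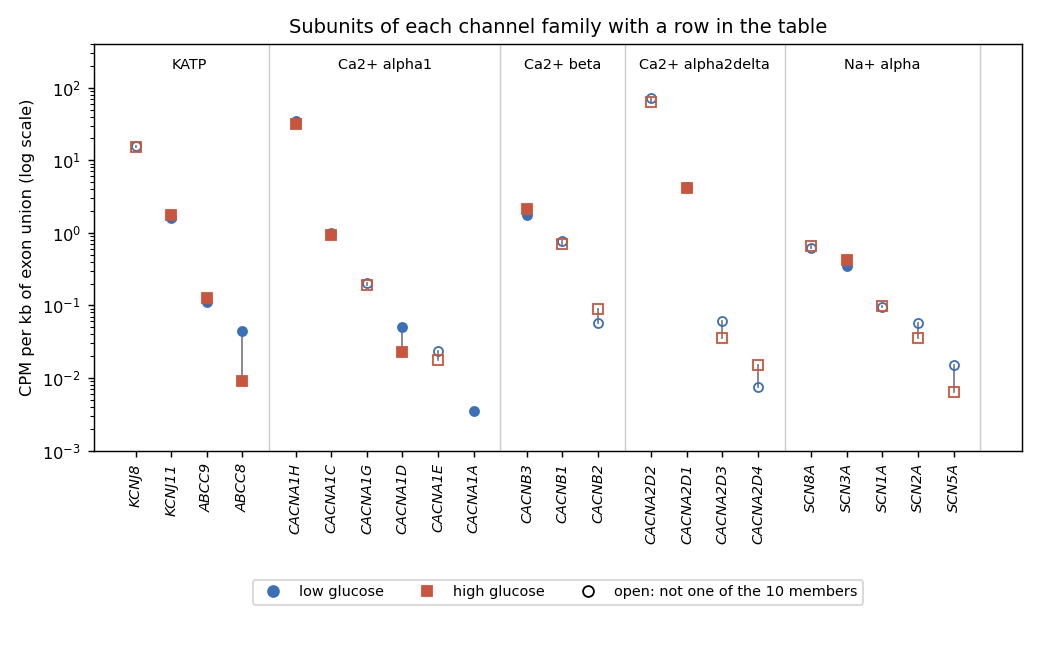
CPM per kb of exon union (log axis) for each KATP and calcium channel subunit gene and sodium channel pore gene with a row, at low glucose (blue circles) and high glucose (red squares); filled points are the 10 genes described and open points their paralogs, and a library with 0 counts has no point. KCNJ8 lies above KCNJ11, CACNA2D2 above CACNA2D1 and CACNA1H far above the other calcium channel pore genes. The libraries lie close together for all genes but the lowest.

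The difference between the glucose concentrations was set beside that of all genes. Of the 7 channel genes that averaged 1 CPM or more, 0 had a log2 ratio past 0.5 in either direction, against 5.38% of the 13052 genes at that level, so that a count of 0 among so few genes is near the background, and the largest of the 7 was 0.30. Their median log2 ratio was 0.14, with 4 genes higher and 3 lower at high glucose, against -0.01 over all 13052 genes. The median was -0.07 over all 10 genes and -0.07 over those that averaged 10 CPM or more, so its sign depends on which genes enter. The counting interval excluded 0 for 2 of the 7, CACNB3 (higher) and CACNA1H (lower), against 31.7% of all genes at that level, a share close to the background. Over all 10 genes, with no limit on level, 3 passed a log2 ratio of 0.5 in size (CACNA1A, CACNA1D and ABCC8, all lower at high glucose), against 25.9% of all genes of the table, and the interval excluded 0 for 3 of 10 (ABCC8, CACNA1H and CACNB3), against 22.2%. Both counts are near the background. For CACNA1A the ratio rests on the small value that the authors added to each count. Those of ABCC8 and CACNA1D rest on the few counts given above and were -0.49 and -0.46 with a pseudocount of 1 CPM, which no longer passes 0.5 in size.

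**Figure D3:**
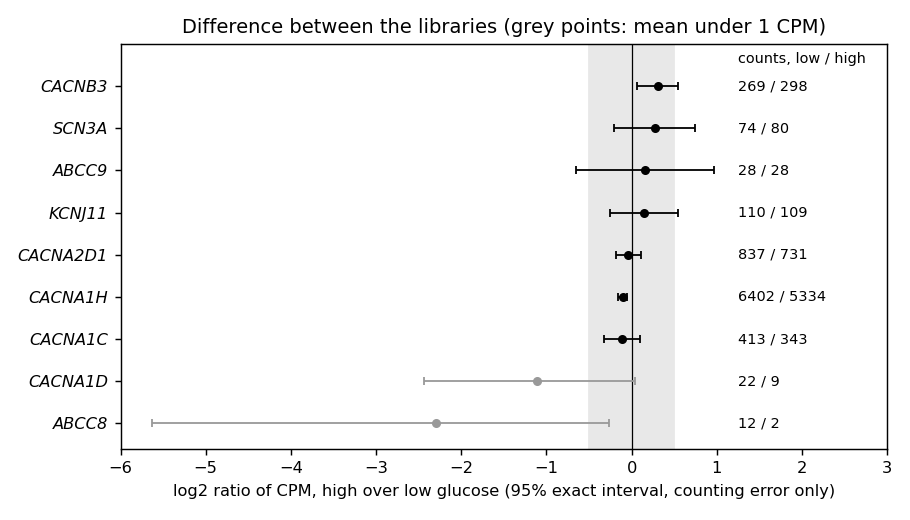
Log2 ratio of CPM, high over low glucose, for the 9 channel genes with counts in both libraries, with the exact 95% interval from counting error and the counts of each library; grey points have a mean under 1 CPM, and the shaded band spans -0.5 to 0.5. The 7 black points lie inside the band, and the grey points of CACNA1D and ABCC8 lie left of it with the widest intervals.

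**Figure D4:**
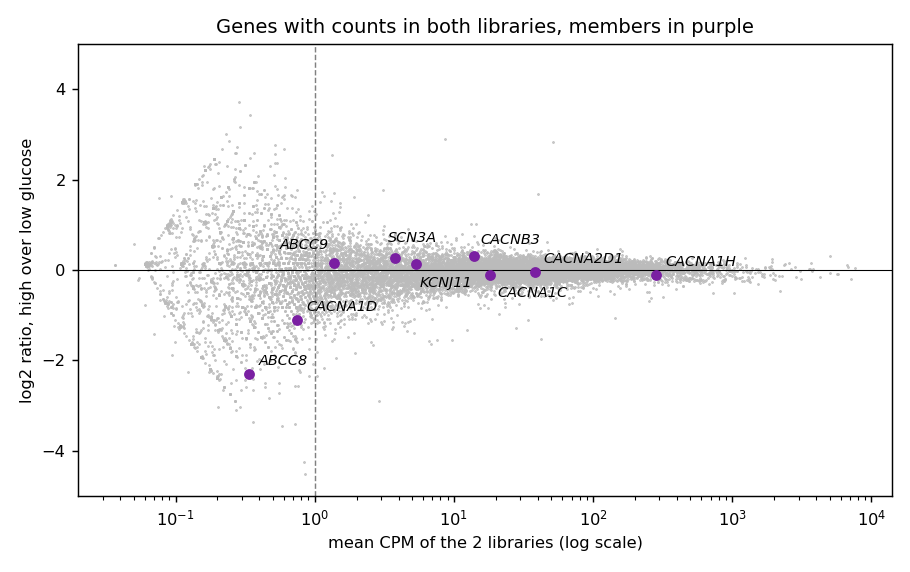
Log2 ratio, high over low glucose, against mean CPM (log axis) for the 18484 genes with counts in both libraries (grey; 1 gene lies outside the plotted range), with the channel genes in purple. The spread of all genes widens below 1 CPM (dashed line), where CACNA1D and ABCC8 lie.

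The kit was not stranded, so reads of a gene and of a partner on the other strand cannot be told apart. CACNA1D shares 1399 exon bases (6.80% of its exons) with CHDH on the opposite strand, which had 0 counts at low glucose and was at 0.166 CPM at high glucose, and CACNA1H shares 122 exon bases (1.42%) with TPSG1, at 1.299 and 1.09 CPM. SCN3A shares 9.91% of its exon bases with an antisense gene of the annotation, CACNA1C shares 564, 552 and 84 bases (2.95%, 2.89% and 0.440%) with 3 such genes, CACNA1H shares 102 (1.19%) with another and ABCC9 shares 87 (0.749%) with 1. No value is given for these antisense genes. KCNJ11, ABCC8, CACNA1A, CACNA2D1 and CACNB3 share no exon with another annotated gene. The estimated counts of all 10 genes were whole in both libraries to within 0.03. For CACNA1H this shows nothing, since its deposited CPM (294.25 and 274.16) carry too few digits to resolve 0.03 of a count. The authors' estimation can divide reads between similar genes. Only 72.1% (low glucose) and 72.7% (high glucose) of all values under 10 CPM were whole.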

How the data were processed

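Polyadenylated RNA of hNCI-H716 cells was sequenced from 1 library at low glucose (5.5 mM) and 1 at high glucose (25 mM). Per the submitters' notes and the methods, the authors trimmed reads with Trim Galore 0.5.0, aligned them with STAR 2.6.0 to GRCh38 and GENCODE v28, estimated counts with RSEM 1.3.1, removed genes with almost no counts and normalized with TMM in edgeR. The deposited values are CPM with a small prior. Columns with the authors' own mean, difference and fold were not used.

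The CPM worth of 1 count (0.0460 at low and 0.0514 at high glucose) was taken from the spacing of the lowest values and gave each total and the estimated counts. The deposited CPM were taken to carry no TMM scaling, although the methods name it. TMM factors (0.998 and 1.002) were therefore computed from these counts in scipy 1.17.1, numpy 2.4.6 and pandas 2.3.3 under Python 3.11.15. The CPM were divided by these factors. Counts were estimates, so no count model was run. Wilson intervals of CPM and exact binomial intervals of log2 ratios cover counting error only, as do limits for a count of 0. Positions and lengths came from GENCODE v29 on GRCh38, and windows before gene starts from RefSeq (GRCh38.p14). The calculations were tested on simulated libraries. All 10 members are named. Other subunits of their families are named if they averaged 1 CPM or more. Of each remaining list, the 3 genes highest in mean CPM are named, with any at 10 CPM or more and a log2 ratio of 0.5 or more in size, and the rest are counted. Some genes that this rule would name are not reported here. Members, lists and thresholds were chosen with earlier results of these data known. The alternatives tried were library totals, median-of-ratios factors, other pseudocounts, thresholds and gene lengths.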

Additional observations from a re-analysis of the deposited data

How the results depend on the processing

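Of 161 values recomputed under an alternative, 134 stayed within their spread (for a count, within 1.5 times), and 27 moved. The 105 CPM and log2 ratios of single members stayed within their counting intervals, which are wide for the lowest genes: with a pseudocount of 1 CPM the log2 ratio of ABCC8 was -0.49 rather than -2.30 and that of CACNA1D -0.46 rather than -1.11, so that neither passed 0.5 in size. Without a limit on level, 3 members rather than 0 passed a log2 ratio of 0.5 in size, since CACNA1A, CACNA1D and ABCC8 then enter. With a 99% interval, 1 member rather than 2 excluded 0, which was CACNA1H; the intervals of CACNB3 (-0.01 to 0.62) and ABCC8 (-6.86 to 0.23) then included it. The CACNA1H share of calcium channel pore transcripts was 96.4% with the exon union. It was 95.3% with the longest transcript, 93.7% with the median transcript and 92.6% with the longest coding sequence. The members' median log2 ratio of 0.14 was -0.07 with no limit on level and -0.07 for members that averaged 10 CPM or more. Of 30 values of CPM per kb with another gene length, 22 moved, all upward, since these lengths are shorter than the exon union. Depth limits ABCC8, CACNA1D and CACNA1A. No paired analysis was possible because only 1 library was made at either concentration.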

Other observations

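Of 39 voltage-gated and calcium-activated potassium channel genes listed, 22 had a row and 14 a mean of at least 1 CPM, where 65.3% of all genes with a row reached that level. The highest were KCNH2, a delayed rectifier, at 218 CPM at low glucose and 228 CPM at high glucose, the large-conductance calcium-activated channel KCNMA1 at 93.8 and 97.8 CPM, and KCNH6 at 37.9 and 37.1 CPM. Of 28 background and other inward rectifier potassium channel genes, 17 had a row and 5 reached a mean of 1 CPM. The highest was KCNJ3, a pore of the G protein-gated channel, at 101 and 109 CPM, followed by KCNJ6, which encodes another such pore, at 22.5 and 19.2 CPM, and by KCNK6 at 2.50 and 1.86 CPM.

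Among other depolarizing channels, the mechanically gated PIEZO1 was at 359 CPM at low glucose and 340 CPM at high glucose, the pacemaker channel HCN2 at 55.8 and 56.5 CPM, and the calcium-activated TRPM4 at 10.1 and 10.6 CPM. For calcium stores and clearance, 18 of 21 genes had a row and 16 reached a mean of 1 CPM. The endoplasmic reticulum pump gene ATP2A2 was at 537 and 570 CPM, the plasma membrane pump gene ATP2B1 at 366 and 367 CPM, and STIM2, a sensor of store calcium, at 82.3 and 86.3 CPM. Of the glucose entry genes, the transporter gene SLC2A1 was at 128 and 118 CPM and SLC2A3 at 7.51 and 4.17 CPM. Over the 45 genes of these lists with a mean of at least 1 CPM, 2 passed 0.5 in the size of the log2 ratio, against 5.38% of all genes at that level, a share near this background. They were SLC2A3 at -0.85 and, named after its values were seen, the exchanger gene SLC8A1 at -0.99.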
